A study of Mus musculus with 4 samples.

Results

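The genes described here encode the hormones by which Sertoli cells signal, together with their receptors and a binding protein: Inha, Inhba, Inhbb, Amh, Amhr2, Fshr and Fst. These 7 genes were chosen by name for their role in inhibin, activin, anti-Müllerian hormone (AMH) and follicle-stimulating hormone (FSH) signalling, out of the 14984 genes of the table, and all 7 had enough reads to be tested. Ribosome footprints, the mRNA fragments that ribosomes shield from nuclease, were sequenced from whole testes at day 10. There were 2 control samples and 2 samples of Eif5 cKO mice, in which a floxed Eif5 gene (Eif5fl/fl) was deleted with Stra8-Cre. The Stra8-Cre transgene acts in germ cells, so Sertoli and other somatic cells of the Eif5 cKO testis kept Eif5 by design. Eif5 encodes a translation initiation factor that triggers GTP hydrolysis in the scanning ribosome. The labels give no genotype, strain or Cre status for the controls, and leave unsaid whether samples of the same group were separate animals. The p-values therefore reflect sample-to-sample spread that may be purely technical. Where a pair of values is given for a group, replicate 1 comes first.

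Inhibins and activins are paired chains of the transforming growth factor beta (TGF-beta) family. An alpha chain (Inha) joined to a beta chain (Inhba or Inhbb) makes inhibin, which lowers FSH secretion by the pituitary, whereas paired beta chains make activin, which raises it. AMH is made by immature Sertoli cells, causes the Müllerian ducts of the male fetus to regress, and falls as Sertoli cells mature. FSH reaches the Sertoli cell from the pituitary and acts through a receptor that raises cAMP.

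The genes lie on 5 chromosomes (GRCm38): Inha (75507077 to 75510366) and Inhbb (119415463 to 119422248) on chromosome 1, Inhba (16004256 to 16031609) and Fst (114452262 to 114458989) on chromosome 13, Amh (80805240 to 80807679) on chromosome 10, Amhr2 (102445002 to 102454640) on chromosome 15 and Fshr (88984952 to 89200675) on chromosome 17. All are protein coding. The deposited value sums footprints over a whole gene, so isoforms could not be told apart.

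RefSeq start-site windows (GRCm38.p6) were matched for 5 of the genes, Inha, Inhba, Inhbb, Amhr2 and Fshr. In 3 of these (Inha, Inhba and Amhr2) the 250 bases before the start site lay inside the annotated gene, because the start site belonged to a transcript that begins 532, 7595 and 365 bases after the gene's first annotated base. The windows of Inhbb and Fshr lay outside their genes. They are shown because Inhbb was higher in both Eif5 cKO libraries than in both controls while the values of Fshr overlapped, and a stretch of Amhr2 is shown for a match to the binding motif of NR5A1, the steroidogenic factor of the gonads. Capitals mark motif matches. All 3 sequences are written 5′ to 3′ on the gene's strand, the minus strand for Inhbb (chr1:119422249-119422498) and Fshr (chr17:89200676-89200925) and the plus strand for Amhr2 (chr15:102445124-102445153).
Inhbb: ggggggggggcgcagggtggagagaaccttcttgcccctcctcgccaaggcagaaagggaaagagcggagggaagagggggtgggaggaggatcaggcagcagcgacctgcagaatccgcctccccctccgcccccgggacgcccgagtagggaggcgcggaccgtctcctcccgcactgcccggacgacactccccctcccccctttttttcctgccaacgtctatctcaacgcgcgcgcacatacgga
Fshr: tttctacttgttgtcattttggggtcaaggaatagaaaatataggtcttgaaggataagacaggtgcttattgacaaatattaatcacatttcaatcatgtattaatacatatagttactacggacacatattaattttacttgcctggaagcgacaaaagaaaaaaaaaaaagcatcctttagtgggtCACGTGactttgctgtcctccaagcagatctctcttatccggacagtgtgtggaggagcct
Amhr2: gcaccttcttcCAAGGTCAgtaggggtaga

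The motifs searched on both strands were CAAGGTCA (NR5A1), AGGTCA (the nuclear receptor half-site, contained in the former), CACGTG (the E-box), TGACG (a part of the cAMP response element), AGATAA (the site of GATA factors) and AACAAT (the site of SOX factors). Fshr held the E-box from 61 bases before the start, and 6.02% of all 32851 RefSeq windows of this length hold that motif. Amhr2 held CAAGGTCA from 232 bases before the start, a motif found in 1.33% of windows. Inha held AGGTCA from 69 bases before the start site of its window, and 14.0% of windows do. Inhba and Inhbb held none of the 6 motifs. The cAMP response element part, the GATA motif and the SOX motif, found in 17.8%, 9.99% and 9.42% of all windows, had no match in the 5 windows. A match describes letters and not a bound site.

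The libraries held 2225964 to 2934609 reads, counted over the 14984 genes of the table only. The 7 genes together took 7615 and 6762 of these reads in the controls, against 12570 and 9803 in the Eif5 cKO libraries. The targeted gene Eif5 had values of 365 and 304 in control, against 173 and 266 in Eif5 cKO, lower in both Eif5 cKO libraries but short of the threshold (log2 fold change -0.63, SE 0.25, limma adjusted p = 0.319). Of 17 Sertoli markers all had reads in every library, and Trf, with 1 to 9 reads, was too low to test. None of the 16 tested passed in limma, and their median log2 fold change was 0.33. Of the 16, 15 were positive, against 50.3% of all genes tested, and 3 had an unadjusted p under 0.05 in the higher direction, against 4.32%. Their summed value was 66111 to 90822 in control and 89679 to 118660 in Eif5 cKO. Of 12 germ cell markers 7 passed in limma in the lower direction, against 0.604% of all genes tested. The median log2 fold change of the 12 was -1.20, but the fall was uneven, from -1.99 to -0.30. The summed value of the 12 was 7864 to 8339 in control and 3851 to 4382 in Eif5 cKO. The 5 macrophage markers were all positive without any passing (median 0.51), with a summed value of 838 to 994 in control and 1226 to 1311 in Eif5 cKO, and the 5 myoid markers were all negative without any passing (median -0.21), at 5839 to 6080 in control and 4634 to 5795 in Eif5 cKO. Of the 5 endothelial markers 4 were positive, 1 was negative and none passed (median 0.07). Their summed value was 903 to 1024 in control and 898 to 1211 in Eif5 cKO. In footprints of a mixed tissue, fewer germ cells, less mRNA per germ cell and fewer ribosomes per mRNA cannot be told apart. For the 7 hormone and receptor genes too, mRNA amount and ribosomes per mRNA cannot be told apart from footprints alone. The part of germ, Sertoli, macrophage, myoid or endothelial cells in the levels of these 7 genes was not tested.

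None of the 7 genes passed the threshold in limma with Benjamini-Hochberg adjustment (adjusted p under 0.05). That threshold was passed in the higher direction by 0.0744% of the 12095 genes tested and in the lower direction by 0.604%. All 7 log2 fold changes of Eif5 cKO over control were positive, with a median of 0.66 against 0.003 over all genes tested, of which 50.3% were positive. The inhibin and activin subunit genes and Amh had mean values 1.64-fold to 1.94-fold those of control, while the receptor genes Amhr2 and Fshr and the antagonist gene Fst were 1.21-fold to 1.22-fold. In 5 genes (Inha, Inhba, Inhbb, Amh and Fst) both Eif5 cKO libraries lay above both controls. That was so for 20.0% of all genes tested and for 11 of the 16 tested Sertoli markers. In 4 genes (Inha, Inhba, Inhbb and Amh) the unadjusted p was under 0.05, as for 4.32% of all genes tested in the higher direction. With 2 samples against 2, an exact two-sided permutation test cannot give a p below 0.33.

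**Figure D1:**
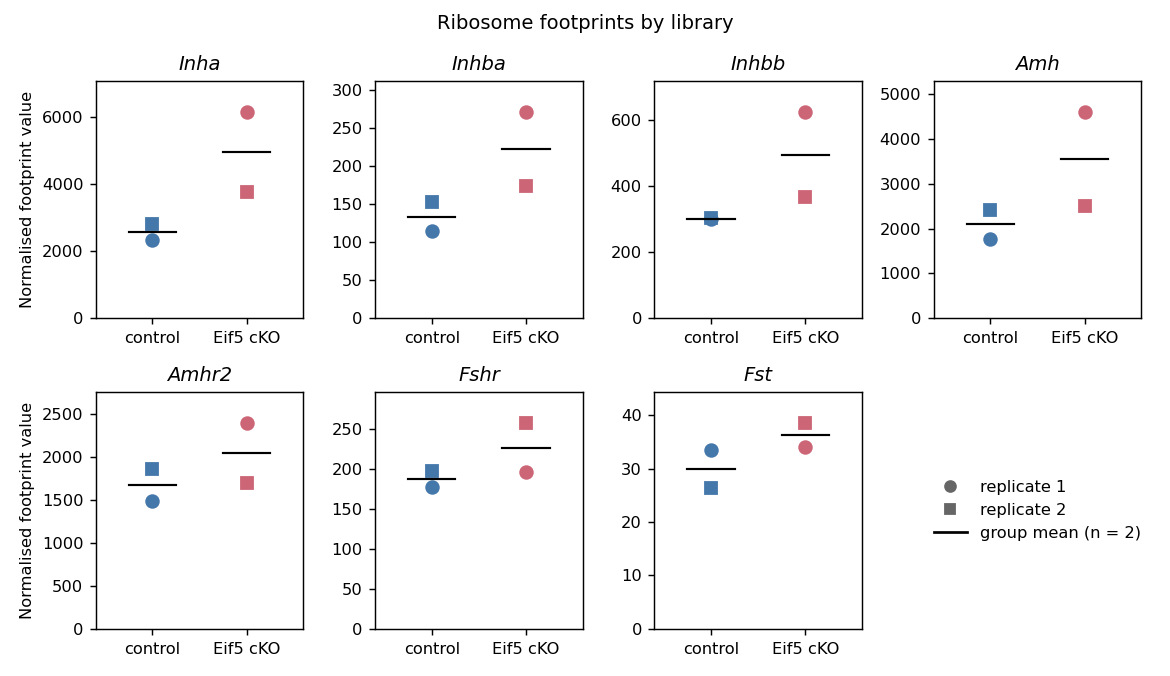
Normalised footprint value (reads divided by the library's size factor, vertical axis from 0) of each gene in the 2 control and 2 Eif5 cKO libraries, with circles for replicate 1, squares for replicate 2 and a bar for the group mean. Inha, Inhba, Inhbb, Amh and Amhr2 were highest in Eif5 cKO replicate 1, whereas Fshr and Fst were highest in Eif5 cKO replicate 2.

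Inha, the alpha chain that all inhibins share, had the largest difference and the smallest p of the 7 genes. Its normalised value, which is the read number divided by the library's size factor, was 2315 and 2797 in the controls, against 6143 and 3752 in the Eif5 cKO libraries. The groups did not overlap, and Eif5 cKO replicate 1 stood furthest from the rest. The group means were 2556 ± 341 and 4947 ± 1690.3 (SD, n = 2 each), a log2 fold change of 0.92 (SE 0.27, 95% interval 0.37 to 1.46, limma adjusted p = 0.116). By unadjusted p Inha ranked 164 of the 12095 genes. These values rested on 2837, 2437, 5407 and 4182 reads, and the 1.64-fold gap between the Eif5 cKO libraries had a 95% interval of 1.57 to 1.70 by exact binomial counting, which covers counting error only. DESeq2 and limma-voom, both run on the recovered reads, called Inha higher (adjusted p = 0.0285 and 0.0186), and so did limma with scaling by library totals (adjusted p = 0.0498), while the edgeR quasi-likelihood test did not (adjusted p = 0.0908). Genes called higher made up 0.0946% of those given an adjusted p by DESeq2, and of all genes tested 0.157% by limma-voom, 0.116% with library totals and 0.0992% by edgeR. Over the 15 alternatives run for this gene its adjusted p ranged from 0.0186 to 0.775.

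Inhba, the beta A chain, had values of 115 and 153 in the controls, against 272 and 174 in the Eif5 cKO libraries. Both Eif5 cKO libraries were above both controls, although replicate 2 exceeded the higher control by little. Its log2 fold change was 0.71 (SE 0.28, 95% interval 0.15 to 1.27, limma adjusted p = 0.304). Inhbb, the beta B chain of inhibin B, the main circulating inhibin of males, had 300.3 and 303.0 in control, against 625 and 367 in Eif5 cKO. The controls were nearly equal, differing 1.01-fold, whereas the Eif5 cKO libraries differed 1.70-fold. Its log2 fold change was 0.66 (SE 0.25, 95% interval 0.17 to 1.16, limma adjusted p = 0.269). The 3 chains thus had the same order of libraries in the Eif5 cKO group, with replicate 1 above replicate 2, and neither beta chain passed.

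The proportion of the chains to each other was compared within each library, where size factors cancel. The log2 ratio of Inha to Inhbb was 2.95 and 3.21 in control, against 3.30 and 3.35 in Eif5 cKO, a difference of 0.25. That of Inha to Inhba was 4.33 and 4.20 in control, against 4.50 and 4.43 in Eif5 cKO, a difference of 0.20. In both ratios, which share Inha, the groups did not overlap, with the Eif5 cKO libraries above. The margin was narrow, because the nearest libraries of the groups differed by less than the controls did from each other. Inhba rested on 133 to 239 reads per library, and the counting error of the ratios was not computed. The ratio of Inhba to Inhbb overlapped between the groups, with log2 values of -1.38 and -0.99 in control, against -1.20 and -1.08 in Eif5 cKO. These ratios are of footprints not corrected for gene length, so only their change between libraries can be read, and no test of them was possible at this number of samples below p = 0.33 by exact permutation.

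Amh had values of 1781 and 2421 in the controls, against 4608 and 2501 in the Eif5 cKO libraries. Eif5 cKO replicate 2 was only slightly above control replicate 2, so that the non-overlap of the groups was narrow. The group means were 2101 ± 453 and 3555 ± 1489 (SD, n = 2 each), with a log2 fold change of 0.71 (SE 0.27, 95% interval 0.17 to 1.25, limma adjusted p = 0.292). In the 15 alternatives Amh never passed, with adjusted p = 0.0551 to 0.925 in the limma, edgeR and DESeq2 fits.

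Amhr2, the type II receptor that binds AMH, had values of 1493 and 1864 in the controls, against 2404 and 1705 in the Eif5 cKO libraries. Eif5 cKO replicate 2 fell between the controls, so the groups overlapped. Its log2 fold change of 0.28 had a 95% interval of -0.21 to 0.77 (SE 0.24, limma adjusted p = 0.730). The log2 ratio of Amh to Amhr2 within a library was 0.25 and 0.38 in control, against 0.94 and 0.55 in Eif5 cKO, higher in both Eif5 cKO libraries. The receptor is expressed in both Sertoli and Leydig cells. All 7 Leydig markers had a positive log2 fold change without any passing (median 0.72), against 50.3% of all genes tested that were positive. In 5 of the 7 both Eif5 cKO libraries lay above both controls, as in 20.0% of all genes tested. By limma 5 of the 7 had an unadjusted p under 0.05 in the higher direction, against 4.32%. The summed value of the Leydig markers was 1582 to 2025 in control and 2588 to 2965 in Eif5 cKO. The part of Leydig cells in the value of Amhr2, or of any other of the 7 hormone and receptor genes, was not tested.

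Fshr, the receptor for FSH on Sertoli cells, had values of 177 and 197 in the controls, against 195 and 257 in the Eif5 cKO libraries. In contrast to Inha and Amh, its highest library was Eif5 cKO replicate 2, and Eif5 cKO replicate 1 lay between the controls. Its log2 fold change was 0.26 (SE 0.26, 95% interval -0.26 to 0.78, limma adjusted p = 0.768). The log2 ratio of Inha to Fshr was 3.71 and 3.82 in control, against 4.97 and 3.87 in Eif5 cKO, so nearly all of its difference of 0.65 came from Eif5 cKO replicate 1.

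Fst encodes follistatin, which binds activin and blocks its action. It had values of 33.5 and 26.4 in the controls, against 34.1 and 38.6 in the Eif5 cKO libraries. Only 23 to 43 reads per library supported these values, and the nearest libraries of the groups, at 33.5 and 34.1, differed by less than the value of 1 read (1.14 in Eif5 cKO replicate 1). The log2 fold change was 0.28 with a wide interval (SE 0.48, 95% interval -0.69 to 1.24, limma adjusted p = 0.884). The log2 ratio of Inhba to Fst, an activin chain to its antagonist, overlapped between the groups, with 1.78 and 2.53 in control, against 2.99 and 2.17 in Eif5 cKO.

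The values depended on the library. Without Eif5 cKO replicate 2, limma called Inhbb, Inha and Inhba higher (log2 fold change 1.05, 1.27 and 1.03, adjusted p = 0.0206, 0.0421 and 0.0452). Genes called higher in that fit were 0.843% of all tested. A fit without a library leaves 1 library in its group, which is assumed to vary like the other group. Without Eif5 cKO replicate 1 none of the 7 passed, as against 0.0992% of all genes called higher, and the log2 fold changes were 0.56 for Inha, 0.39 for Inhba, 0.28 for Inhbb, 0.27 for Amh, 0.03 for Amhr2, 0.46 for Fshr and 0.37 for Fst. Leaving out control replicate 1 lowered Amhr2 to 0.12 and raised Fst to 0.44, and leaving out control replicate 2 lowered Fst to 0.11 and raised Amhr2 to 0.44. Without control replicates 1 and 2 in turn, Inha was at 0.78 and 1.05. The signs of Inha, Inhba, Inhbb and Amh were positive in all 15 alternatives run for each. In 11 of the 12 germ cell markers both Eif5 cKO libraries lay below both controls, as in 20.9% of all genes tested, whereas the values of Zbtb16, named here after they were seen, overlapped. The median log2 difference of germ cell markers from the control mean was -1.31 in Eif5 cKO replicate 1 and -0.93 in replicate 2, and that of Sertoli markers was 0.50 and 0.20.

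**Figure D2:**
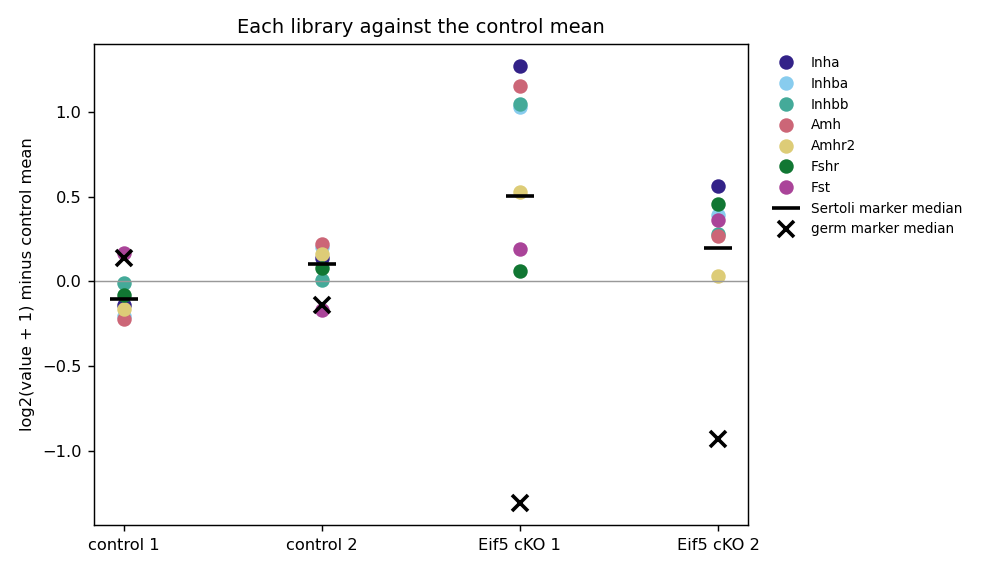
log2(value + 1) of each gene minus the control mean, by library, with the median of 16 Sertoli markers (bar) and 12 germ cell markers (cross) on the same scale. In Eif5 cKO replicate 1, Inha, Inhba, Inhbb, Amh and, narrowly, Amhr2 lie above the Sertoli marker median of 0.50, whereas Fshr and Fst lie below it. In Eif5 cKO replicate 2 Amhr2 alone lies below the Sertoli marker median of 0.20.

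To set the hormone genes against other Sertoli transcripts, the libraries were rescaled so that the median of 16 Sertoli markers, none of them among the 7 genes, was equal in all. This rescaling moved the median log2 fold change of all genes from 0.003 to -0.34. On the rescaled values Inha was 2871 and 2949 in control, against 4981 and 3706 in Eif5 cKO, still without overlap and 1.49-fold higher in the mean. Its log2 fold change was 0.56 (SE 0.20, limma adjusted p = 0.211), so it did not pass. Inhba also remained without overlap, with 143 and 161 in control against 220.2 and 172 in Eif5 cKO (log2 fold change 0.36, SE 0.32, limma adjusted p = 0.631). Inhbb and Amh overlapped on this scale (log2 fold change 0.31 and 0.36). On this scale limma called none of the 12095 genes higher (0%). The new factors take about the same amount from every log2 fold change (-0.35 by the factors alone), so the signs of Amhr2, Fshr and Fst, which started nearer to 0 than that, turned negative by construction, at -0.074, -0.090 and -0.065. Under TMM factors and library totals all 7 kept a positive sign.

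**Figure D3:**
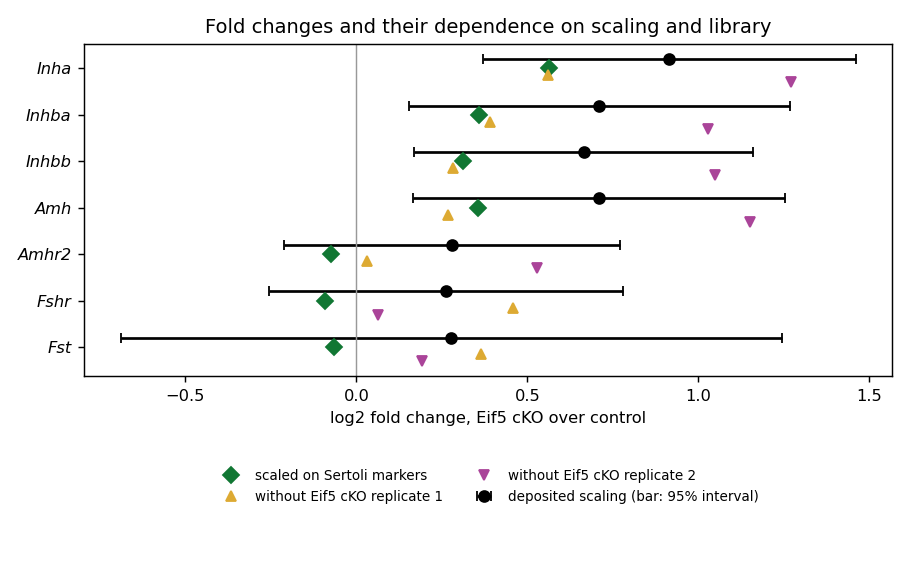
log2 fold change of Eif5 cKO over control for each gene with the deposited size factors (circle, bar for the 95% interval of limma), with libraries rescaled on Sertoli markers (diamond), and without each Eif5 cKO library (triangles). The 95% intervals of Inha, Inhba, Inhbb and Amh lie above 0, and on the Sertoli scale Amhr2, Fshr and Fst lie just below 0.

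Genes whose pattern was most like that of Inha were sought by the Euclidean distance of log2(value + 1), centred over the 4 libraries, among 5221 other genes with a mean value of at least 100. The nearest were Gm17807 (distance 0.10), Sptssa, a small subunit of serine palmitoyltransferase (0.15), Parp6, an ADP-ribosyltransferase (0.18), Spp1, which encodes osteopontin (0.19), and Flrt2, a membrane protein (0.19). None of these 5 genes passed in limma, with adjusted p = 0.0607 for Spp1 and 0.152 to 0.318 for the other 4. Inhba ranked 11 and Amh ranked 14 of the 5221 genes by this distance (0.23 and 0.27), and Inhbb ranked 26 (0.31). Amhr2 and Fshr ranked 427 and 2108, further away than the other chains and Amh. Fst, below the mean value required, was not ranked. The distance over 4 libraries is a description and carries no test.

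The wider pathway was followed in 10 lists of 93 genes, of which 12 were not analysed here and 10 had too few reads to be tested. Of the 71 tested, 1 rose and none fell in limma over all genes, against 0.0744% and 0.604% of all genes tested. Positive log2 fold changes were found in 47 (66.2%, against 50.3% of all genes tested), and the median was 0.17. In 27 of the 71 both Eif5 cKO libraries lay above both controls (38.0%, against 20.0% of all genes tested). At an unadjusted p under 0.05 in either direction there were 9 of the 71, against 10.6% of all genes tested. The lists were chosen with earlier results of these data known, and some of their genes are also Sertoli markers. The shares are therefore descriptions only.

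Gnas, the stimulatory G protein alpha subunit that couples the FSH receptor to adenylyl cyclase, was the gene that rose. Its values were 59.6 and 64.3 in control, against 156 and 145 in Eif5 cKO, with no overlap and little spread within a group. The log2 fold change was 1.27 (SE 0.31, limma adjusted p = 0.0338). Gnas lies in an imprinted locus with overlapping and antisense transcripts, whose reads may be counted together. The call was lost in DESeq2 with a similar log2 fold change (1.29, adjusted p = 0.0619), and on the Sertoli scale with a lower one (0.92, limma adjusted p = 0.244). It was also lost, with log2 fold changes of 1.21 and 1.32, without the first and the second control (limma adjusted p = 0.448 and 0.233), and at 1.22 without the first Eif5 cKO library (limma adjusted p = 0.0755). Of the other 16 genes of FSH receptor signal transduction none passed, and the median of the 17 was 0.10.

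Among the transcription factors that act on Amh and Inha, 0 of 10 passed, the median was 0.27, and in 6 both Eif5 cKO libraries lay above both controls, as in 20.0% of all genes tested. Sox8, a SOX factor of Sertoli cells, had values of 287.3 and 287.0 in control, against 771 and 409 in Eif5 cKO (log2 fold change 0.97, SE 0.25, limma adjusted p = 0.0578). Like Inha, it was highest in Eif5 cKO replicate 1, and it is itself one of the 16 Sertoli markers. It passed in the edgeR quasi-likelihood test (adjusted p = 0.0351) and limma-voom (adjusted p = 0.0224), not in DESeq2 (adjusted p = 0.0778), and its log2 fold change was 0.51 without Eif5 cKO replicate 1. Gata4, a zinc finger factor of the gonad, had 194 and 250.2 in control, against 378 and 330.2 in Eif5 cKO (log2 fold change 0.68, SE 0.24, limma adjusted p = 0.245).

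Of 10 tested receptors and co-receptors for activin, inhibin and related ligands none passed, with a median of 0.25 and log2 fold changes of -0.72 to 0.44. Tgfbr3, or betaglycan, the co-receptor that gives inhibin its affinity for activin receptors, had 295 and 379 in control, against 432 and 447 in Eif5 cKO (log2 fold change 0.39, SE 0.23, limma adjusted p = 0.580). Acvr1, a type I receptor, had 89.8 and 106 in control, against 139 and 127 in Eif5 cKO (log2 fold change 0.44, SE 0.29). In both of these genes the Eif5 cKO libraries lay above both controls, as in 6 of the 10 and in 20.0% of all genes tested. In 2 of the 10 they lay below both controls, as in 20.9% of all genes tested. None of 7 tested SMAD genes, the intracellular transducers of these receptors, passed, and their median was 0.004. The smallest p belonged to the inhibitory Smad6, with values of only 3.44 to 15.3, and to Smad1, whose groups overlapped (log2 fold change -0.47, SE 0.37).

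Genes outside the cell that modulate these ligands also gave no calls. Of 3 tested antagonists, Fstl3, a relative of follistatin, had 179 and 209 in control, against 252 and 239.6 in Eif5 cKO (log2 fold change 0.35, SE 0.25, limma adjusted p = 0.670). Proprotein convertases cleave the precursors of inhibin chains and AMH. All 4 were tested with a median of 0.16, and Pcsk7 (-0.63, SE 0.51) and Pcsk6 (0.23, SE 0.27) had the smallest p. Of 7 other tested TGF-beta family ligands, with a median of 0.03, Gdnf, the Sertoli factor for spermatogonial stem cells, had 8.98 and 10.3 in control, against 22.7 and 32.3 in Eif5 cKO (log2 fold change 1.40, SE 0.67, limma adjusted p = 0.451). The values of Gdnf rested on only 9 to 36 reads per library. Tgfb3 (0.30, SE 0.28) was the other ligand named by smallest p.

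Response genes were mixed in sign. Of 8 tested FSH and cAMP response genes none passed, 4 were positive and the median was 0.04. Besides Gdnf, the immediate-early gene Fos had 42.4 and 24.1 in control, against 7.95 and 20.6 in Eif5 cKO (log2 fold change -1.25, SE 0.62, limma adjusted p = 0.475). The values of Fos rested on only 7 to 52 reads per library. Of 8 tested SMAD response genes none passed and 6 were positive, with a median of 0.43. In 5 of these 8 both Eif5 cKO libraries lay above both controls, as in 20.0% of all genes tested. In 1 of them both lay below, as in 20.9%. Tgif1, a SMAD corepressor, had 173 and 137 in control, against 228 and 250.3 in Eif5 cKO (log2 fold change 0.63, SE 0.26, limma adjusted p = 0.337), and Id3, a target of bone morphogenetic protein signals, had a log2 fold change of 0.46 (SE 0.30). In the list of gonadotropin genes the receptor for luteinizing hormone, Lhcgr, was the gene tested (0.35, SE 0.30, limma adjusted p = 0.726).

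**Figure D4:**
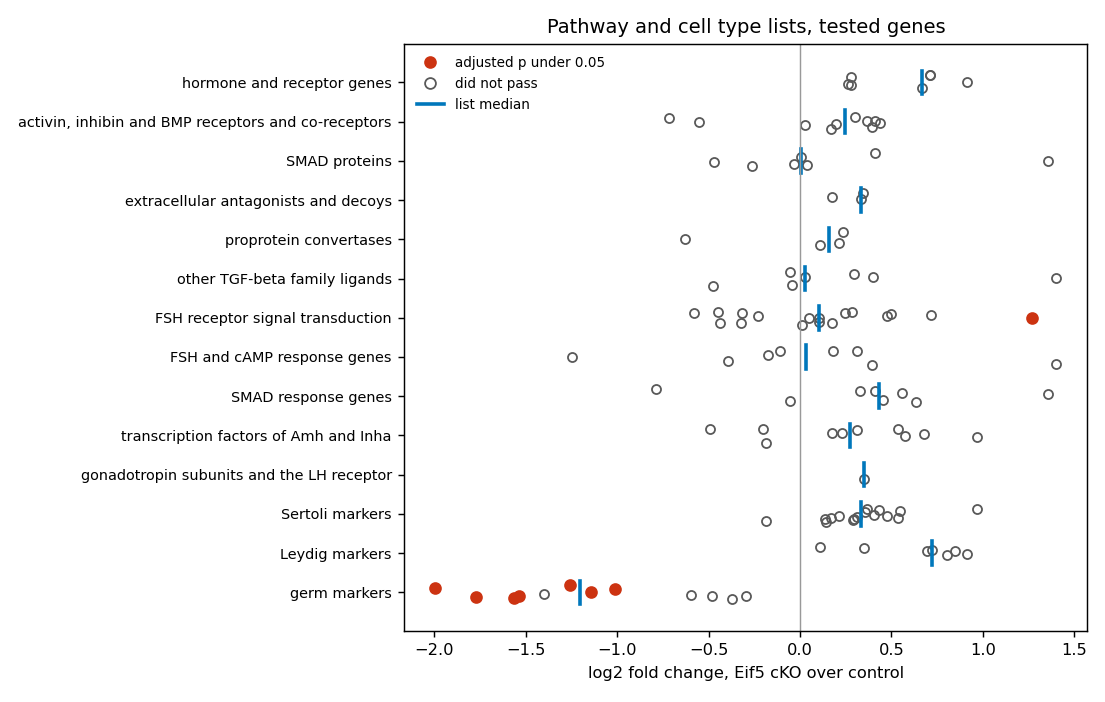
log2 fold change of Eif5 cKO over control (horizontal axis) for the tested genes of each list, with the 7 hormone and receptor genes at the top, filled points for genes at adjusted p under 0.05 and bars for list medians. The median was 0.66 for the 7 genes, 0.33 for Sertoli markers, 0.72 for Leydig markers and -1.20 for germ cell markers, and Gnas was the pathway gene that passed.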

How the data were processed

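The authors deposited a table of footprints per gene symbol, in which values are a normalized signal and not raw counts. Bowtie2, STAR, featureCounts and the build GRCm38 are named in the submitters' processing notes, without versions. The sources used here state neither strand nor multi-mapping settings. Within a column 100% of values were whole multiples of 1 read (relative tolerance 1e-06). The columns had been divided by 1.23 and 0.871 (controls) and by 0.880 and 1.11 (Eif5 cKO), equal to the median-of-ratios size factors of the recovered reads.

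limma 3.58.1 (R 4.3.3, eBayes with trend) was fitted to log2(value + 1) with a group term alone, for the 12095 genes that passed filterByExpr of edgeR 4.0.16 (minimum count 10). This scale understates the change of low genes. Tests were two-sided with Benjamini-Hochberg adjustment over these genes. The fit was tested on simulated reads. Alternatives were edgeR, DESeq2 1.42.0, limma-voom, other pseudocounts, filters and scalings, each library left out and a replicate block. Control and Eif5 cKO share replicate numbers in the titles, which nothing else pairs (correlation of deviations -0.0465). The genes and lists were chosen with earlier results of these data known. Named genes were the 7 genes, Eif5, the called genes of each list or else the 2 with the smallest p, and the 5 genes nearest to Inha. A gene that this rule names is not reported here. No coding lengths were used here, so levels were not compared between genes. Promoter windows came from RefSeq.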

Additional observations from a re-analysis of the deposited data

How the results depend on the processing

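Of the 7 genes, 0 passed in the limma fit on the deposited values and 1 (Inha) in DESeq2, in limma-voom and with library totals. Leaving out each library in turn gave 0 to 3 of the 7 genes, 0 to 2 pathway genes and 10 to 346 calls over all genes, against 82 with all libraries. The pathway count, 1 in the limma fit, was 2 (Gnas and Sox8) with edgeR, limma-voom, a pseudocount of 4, no filter, library totals and the replicate block, and 0 with DESeq2, with scaling on Sertoli markers and at adjusted p under 0.01. That stricter threshold left 37 calls over all genes. Scaling on Sertoli markers gave 0 higher and 89 lower calls, against 9 and 73. The sign reversed on this scale for Amhr2 (-0.074), Fshr (-0.090) and Fst (-0.065), because its factors shift every log2 fold change by about -0.35. The cause of the other changes was not tested. With the replicate block 0 of the 7 genes passed and 100 genes were called. Fst could not be fitted under the filter of 50 reads in 2 libraries. Fst had the fewest reads of the 7 genes, 23 to 43 per library, and so the largest relative counting error.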
